A study of Mus musculus with 71 samples.

Results

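Male mouse embryonic stem cells (mESC) that had received the Mettl3 inhibitor STM2457 for 9.5 or 11.3 h were compared with cells given only the solvent, DMSO. The 15 libraries were chosen by their labels, as all libraries of the chase time points T4 and T5, out of 71 in the series. T4_DMSO, T5_DMSO and T5_STM2457 hold 4 libraries each, and T4_STM2457 holds 3. The cells grew in 2i/LIF medium, which holds the GSK3 inhibitor CHIR99021, the MEK inhibitor PD0325901 and the cytokine LIF, and cells of all 15 libraries were first labelled with 100 µM 4-thiouridine (s4U) for 24 h and then chased with an excess of uridine, for 3.5 h at T4 and 5.3 h at T5. STM2457 at 20 µM or DMSO was added 6 h before the chase and stayed on the cells until collection, so every control had gone through the same s4U, uridine and solvent. The labels name 1 male mESC line for all libraries and no genetic change. Per the study's methods, replicates are biologically independent.

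N6-methyladenosine (m6A) is the most abundant internal modification of mRNA. A writer complex around the catalytic subunit Mettl3 and its partner Mettl14 deposits it in DRACH motifs, of which GGAC is a common core, often near stop codons and in 3′ UTRs. Reader proteins such as Ythdf2 bind methylated transcripts and recruit the deadenylation machinery, and STM2457 occupies the cofactor pocket of Mettl3 and blocks its catalysis. SLAM-seq reads 2 things in the same library. The number of reads on a gene gives its level, and the share of T positions read as C, called the conversion rate, gives the remaining s4U label, which falls as labelled RNA is replaced.

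Between 4562128 and 6282885 reads were counted per library, of which 23.8 to 26.7% mapped to several places. Reads were not tied to molecules by identifiers, and counting error is therefore only a lower limit of the error. Among naive pluripotency markers, Pou5f1 was at 711 to 904 CPM (read counts scaled to the same total in every library) and Nanog at 135 to 300.1 CPM over the 15 libraries, while Klf4, Prdm14 and Nr5a2, which are on the same list, were at or near 0 in some libraries. None of 11 listed markers of 2-cell-like cells passed the filter on low counts, and their summed level reached at most 2.63 CPM. Markers of endoderm, neural cells, trophoblast and fibroblasts had 4, 2, 5 and 4 testable members, of which none passed the test described below (1 trophoblast gene did without the libraries described next). Fewer cells of a kind and less RNA per cell cannot be told apart in such bulk libraries.

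The T5_DMSO replicates 3 and 4 stand apart from the other libraries. On the first principal component of the log2 CPM values, which held 23.2% of the variance, they lay at 58.6 and 60.96, against 9.87 and 21.3 for T5_DMSO replicates 1 and 2. Their differences from the other T5_DMSO replicates followed the GC content of the last 500 bases of a transcript with a Spearman correlation of −0.29 across 11459 genes, which share the same libraries. The log2 fold change of STM2457 against DMSO correlated with the same GC content at 0.21 with all libraries and at 0.08 without these replicates. The part of GC content in single genes was not tested. Main results are therefore given with and without both libraries where they differ, while the counts of several gene lists are given only with all libraries.

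**Figure D1:**
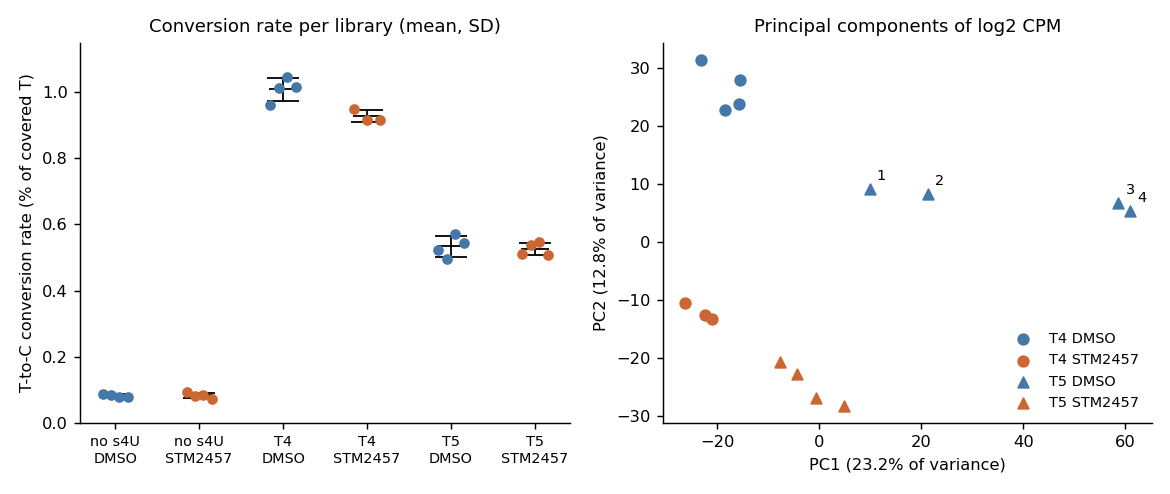
Left, T-to-C conversion rate of each library in percent of covered T positions, with mean and SD, for unlabelled cells and for T4 and T5. The labelled libraries lie near 1.01 and 0.927% at T4 and near 0.534 and 0.526% at T5, far above the unlabelled ones (0.0814 and 0.0829%). Right, the 15 libraries on the first and second principal components of log2 CPM, where T5_DMSO replicates 3 and 4 lie at 58.6 and 60.96 on the first component.

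STM2457 changed the level of 735 of 11537 tested genes, which is 6.37% of them. Levels rose for 436 genes (3.78%) and fell for 299 (2.59%), by the edgeR quasi-likelihood test at an adjusted p under 0.01. The changes were small. The median log2 fold change was 0.62 among the genes that rose and −0.50 among those that fell, and 51 genes rose and 24 fell by 2-fold or more. All genes tested had a median log2 fold change of −0.01, and levels are shares of a library, so a change common to all transcripts would not show. In 256 of the 735 genes no STM2457 library overlapped a DMSO library, beside 295 of all tested genes (2.56%). Overlap of levels was judged over both times together unless a time is named, so T4 and T5 libraries were also set against each other. Without T5_DMSO replicates 3 and 4, 830 genes passed, 599 of them among the 735, and all 735 kept their direction. The count was 486 without T5_STM2457 replicate 4 and stayed within 1.5 times of 735 without any other single library.

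**Figure D2:**
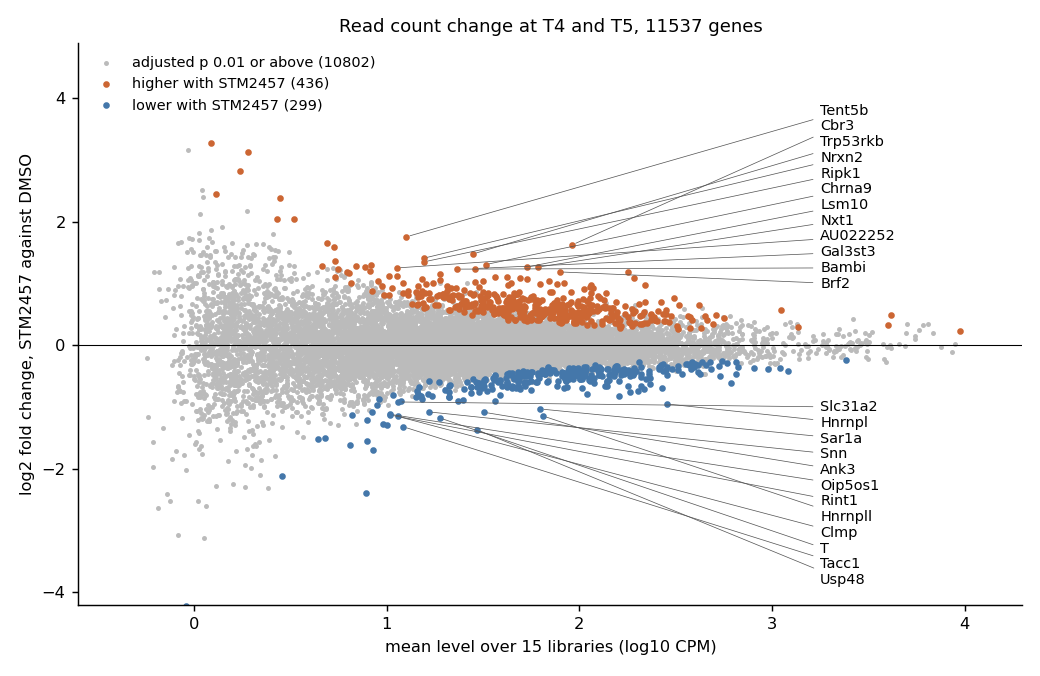
Log2 fold change of STM2457 against DMSO (vertical) against the mean level in log10 CPM (horizontal) for 11537 genes, with genes past the threshold in colour and the named genes labelled; 2 genes lie outside the plotted range. More coloured points lie above 0 (436) than below it (299), and most lie within 1 log2 unit of 0.

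The 8 stretches below come from the 4 ranked genes of smallest p in each direction. They are shown because GGAC is a common core of the motif that the inhibited enzyme acts on. Each holds the GGAC closest to the stop codon among those whose 24 bases cross neither an exon boundary nor the end of the stop codon. GGAC was searched without regard to the base that follows it, so not every stretch holds a full DRACH motif. Each line gives 24 bases of the longest coding transcript, 5′ to 3′ on the coding strand, from GENCODE M21 on GRCm38, with GGAC in capitals.
Cbr3: cagggctcccGGACcgtggaagag
Brf2: gcagttaattGGACcaaggtccta
Lsm10: accacctcagGGACctccggtgtt
Nxt1: tccggttccaGGACtgggccagct
Hnrnpl: tgctggagtgGGACtcgaagagcg
Usp48: cagacttgaaGGACgtgtttcaga
Hnrnpll: tacaagtgctGGACaagcatctaa
Ank3: aagatgaccaGGACtacggctgac

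The stretch of Cbr3 lies at chr16:93690645-93690668 on the plus strand, in the coding part of exon 3 of 3. That of Brf2 is at chr8:27123759-27123782 on the minus strand, in the 3′ UTR in exon 4 of 4, and that of Lsm10 at chr4:126098248-126098271 on the plus strand, in the 3′ UTR in exon 2 of 2. Nxt1 has it at chr2:148675738-148675761 on the plus strand, in the coding part of exon 3 of 3, 12 bases before the end of the stop codon. Among the genes that fell, the Hnrnpl stretch is at chr7:28821413-28821436 on the plus strand, in the coding part of exon 13 of 14. The Usp48 stretch is at chr4:137656334-137656357 on the plus strand, in the 3′ UTR in exon 27 of 27. Hnrnpll has it at chr17:80034125-80034148 on the minus strand, in the coding part of exon 10 of 13, and Ank3 at chr10:70004911-70004934 on the plus strand, in the coding part of exon 41 of 43.

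These letters are frequent in mRNA. A GGAC lay within 250 bases of the stop codon in 87.0% of the 11157 tested genes with a coding transcript and a 3′ UTR, in 90.5% of 423 genes that rose and in 82.9% of 293 that fell. The median number of GGAC per kilobase of transcript was 4.17 over all, 4.73 for the genes that rose and 3.70 for those that fell. Median transcript lengths were 3107, 2563 and 2833 bases in the same order. Only the coding strand was searched, a match shows letters and not a methylated site, and no test was made of these descriptions. The genes that rose and fell were taken here only from the fit with all libraries. In that fit the fold change correlated with the GC content of transcript ends at 0.21. Without the T5_DMSO replicates that stand apart, this correlation was 0.08. The part of GC content in the GGAC values was not tested.

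Cbr3 (chr16:93683215-93690990), a carbonyl reductase, had 27.9 to 65.4 CPM in the 8 DMSO libraries with a median of 48.8, and 132 to 157 CPM with a median of 141 in the 7 STM2457 libraries. No library of one treatment reached the range of the other. Its log2 fold change was 1.63 ± 0.12 (SE; adjusted p = 4.69e-09), the smallest p of all genes tested. Brf2 (chr8:27123364-27128680), a subunit of the initiation factor of RNA polymerase III, had 36.4, 51.4 and 66.4 CPM as lowest, median and highest value in DMSO and 101, 115 and 120.1 CPM in STM2457. The groups were again separate, with a log2 fold change of 1.19 ± 0.09 (adjusted p = 1.22e-08).

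Lsm10 (chr4:126096623-126098584) encodes a subunit of the U7 particle that cuts the 3′ ends of histone transcripts. Its lowest, median and highest levels were 27.4, 32.4 and 39.6 CPM in DMSO and 64.3, 77.5 and 91.1 CPM in STM2457. The lowest STM2457 library lay well above the highest control, and the log2 fold change was 1.27 ± 0.11 (adjusted p = 2.79e-08). Nxt1 (chr2:148672601-148676027) encodes the partner of the general mRNA exporter Nxf1. It had 27.3, 35.1 and 56.2 CPM in DMSO and 74.1, 90.8 and 99.6 CPM in STM2457, again without overlap, and a log2 fold change of 1.27 ± 0.12 (adjusted p = 1.11e-07).

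Other genes with large increases had lower levels. Tent5b, a non-canonical poly(A) polymerase, had 2.58 to 11.2 CPM in DMSO and 12.01 to 24.7 CPM in STM2457, and its log2 fold change of 1.76 ± 0.22 (adjusted p = 8.47e-06) was the highest of the ranked genes. Trp53rkb, one of the gene copies of a kinase that phosphorylates p53, rose from 12.3 to 22.4 CPM in DMSO to 32.7 to 50.4 CPM (log2 fold change 1.48 ± 0.14). Ripk1, a kinase of death receptor signalling, was at 5.57 to 11.8 CPM in DMSO and 18.5 to 30.8 CPM in STM2457 (1.35 ± 0.17). Bambi, a decoy receptor that dampens TGF-β and BMP signals, was at 9.49 to 16.9 and 21.4 to 42.6 CPM (1.23 ± 0.16). Each of these genes separated the treatments completely. Nrxn2, a synaptic adhesion protein, and Chrna9, an acetylcholine receptor subunit, did so as well, with log2 fold changes of 1.41 ± 0.21 and 1.31 ± 0.16. In AU022252 (1.25 ± 0.23) and Gal3st3 (1.24 ± 0.21), a sulfotransferase, the groups overlapped over both times together and were separate within each time.

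Among the genes that fell were the paralogous splicing regulators Hnrnpl and Hnrnpll. Hnrnpl (chr7:28808541-28822266) had 322, 374 and 403 CPM as lowest, median and highest value in DMSO and 153, 194 and 211 CPM in STM2457. Every STM2457 library was below every control, and the log2 fold change was −0.95 ± 0.07 (adjusted p = 6.32e-09). Hnrnpll (chr17:80029487-80062334) had 54.6, 81.9 and 124 CPM in DMSO and 28.4, 44.5 and 48.1 CPM in STM2457, also without overlap (−1.14 ± 0.11, adjusted p = 2.47e-07).

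Usp48 (chr4:137593755-137658537), a deubiquitinating enzyme, was at 35.9, 41.5 and 47.3 CPM in DMSO and at 9.45, 16.4 and 19.8 CPM in STM2457. The treatments did not overlap, and the log2 fold change of −1.37 ± 0.13 (adjusted p = 1.57e-07) was the lowest of the ranked genes. Tacc1, a protein of the centrosome and microtubules, fell from 13.8 to 23.7 CPM in DMSO to 4.84 to 8.52 CPM (−1.32 ± 0.19). Ank3, the membrane adaptor ankyrin-G, had 30.3 to 62.6 CPM in DMSO and 14.05 to 30.2 CPM in STM2457 (−1.08 ± 0.12). Sar1a, a GTPase that starts the COPII coat of secretory vesicles, had 51.2 to 116 and 21.6 to 50.2 CPM (−1.03 ± 0.15), and Rint1, a vesicle tethering factor, had a log2 fold change of −1.13 ± 0.21. None of these had overlapping groups, although the nearest libraries of Ank3 lay at 30.3 and 30.2 CPM.

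Over both times together, the treatments overlapped in T, the mesoderm factor Brachyury (−1.17 ± 0.19), and in the adhesion protein gene Clmp (−1.15 ± 0.24). They also overlapped in the long non-coding RNA Oip5os1 (−1.12 ± 0.23), in Snn (−1.08 ± 0.20) and in Slc31a2 (−0.92 ± 0.22), a relative of the copper importer. Within each time Clmp and Oip5os1 were separate, with the nearest T4 libraries of Clmp at 7.56 and 7.54 CPM. T and Snn overlapped only at T4 and Slc31a2 only at T5. Slc31a2 lost its call when T4_DMSO 1, 3 or 4, any T4_STM2457 replicate, T5_DMSO 2 or T5_STM2457 4 was left out, with an adjusted p of up to 0.0197. The other 23 of the 24 ranked genes kept theirs in every fit without a single library.

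**Figure D3:**
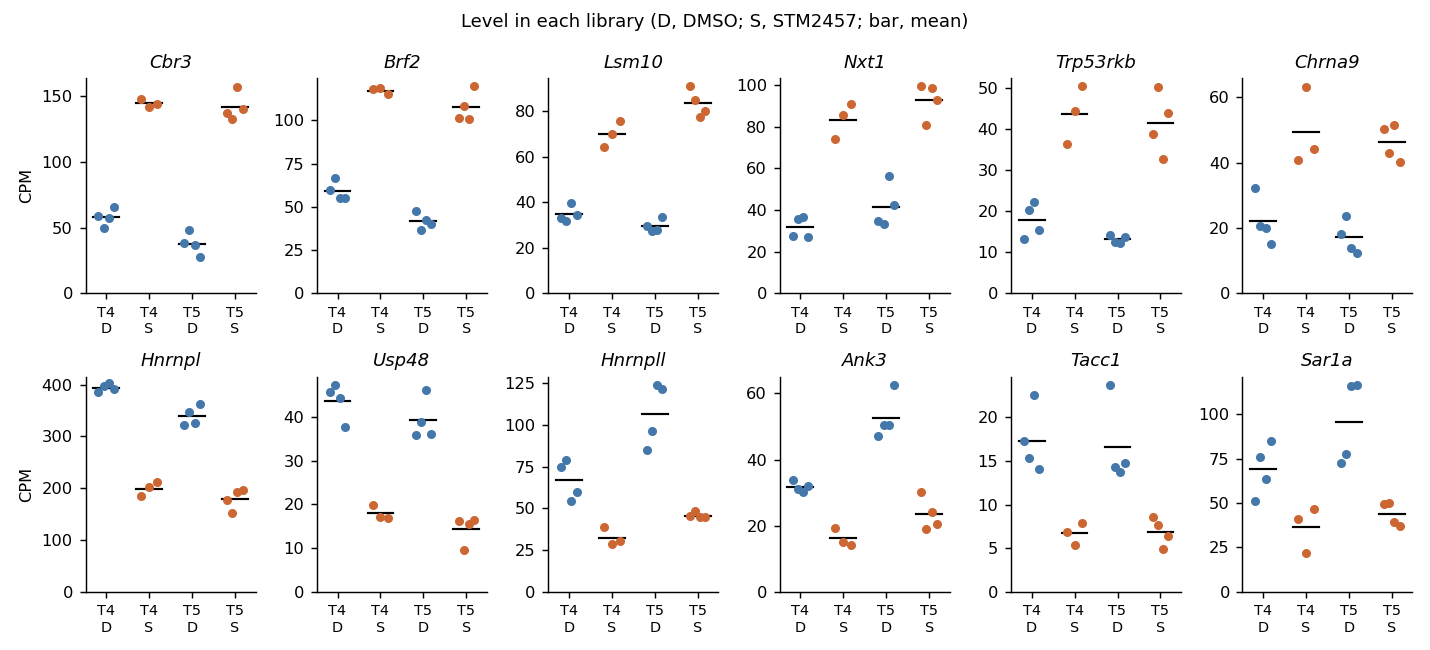
Level in CPM in each library, with the mean as a bar, of the 6 genes with the smallest p among the ranked increases (top row) and decreases (bottom row), for DMSO (D) and STM2457 (S) at T4 and T5. In Cbr3 all STM2457 libraries lie at 132 CPM or more and all DMSO libraries at 65.4 CPM or less, and in Hnrnpl the order is the opposite, with at most 211 against at least 322 CPM.

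Genes of cholesterol synthesis rose together. Of 23 members, 11 rose and none fell, beside 3.78% and 2.59% of all genes, and the median log2 fold change of the list was 0.38. Msmo1, a sterol demethylating oxidase, had 202, 225 and 272 CPM as lowest, median and highest value in DMSO and 366, 392 and 419 CPM in STM2457. The groups lay far apart, with a log2 fold change of 0.77 ± 0.07 (adjusted p = 1.13e-07). Nsdhl, a later enzyme of the same steps, rose by 0.66 ± 0.10 on the log2 scale and the lanosterol demethylase Cyp51 by 0.50 ± 0.07. Among members that did not pass, Hmgcs1 was at 0.16, Sqle at 0.13 and the regulator Srebf2 at −0.35. Leaving out T5_DMSO replicates 3 and 4 gave 12 that rose and none that fell. The summed level of the list was 2757 to 3005 CPM in DMSO and 3508 to 3740.4 CPM in STM2457.

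In the m6A machinery itself, 4 of 13 writers and erasers rose and none fell (30.8%, beside 6.37% of all genes). Wtap, the adaptor that holds the writer complex together, had 149, 172 and 184 CPM in DMSO and 243, 285 and 291 CPM in STM2457. Its groups did not overlap (0.70 ± 0.07, adjusted p = 3.22e-07), but 65.7% of its reads mapped to several places. Rbm15, a subunit that recruits the complex to RNA, rose by 0.49 ± 0.09 and Mettl16, a separate m6A writer that acts on Mat2a and U6 RNA, by 0.40 ± 0.08 on the log2 scale. Both also separated the treatments. Zc3h13, another subunit, passed with all libraries (0.51 ± 0.12) and not without T5_DMSO replicate 3 or without any one of the T5_STM2457 replicates, with an adjusted p of up to 0.0133, nor without T5_DMSO replicates 3 and 4 together (0.0124).

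The inhibited enzyme did not pass the test of level over both times. Mettl3 had 15.1, 25.3 and 35.5 CPM in DMSO and 20.7, 26.1 and 27.9 CPM in STM2457, a log2 fold change of 0.02 ± 0.13 (adjusted p = 0.934). Its groups overlapped over the whole range of STM2457. By time, Mettl3 was at 0.29 ± 0.18 at T4 and −0.20 ± 0.17 at T5, a difference that did not pass (edgeR, adjusted p = 0.407). Its partner Mettl14 was at 0.02 ± 0.11, the subunits Virma at −0.07 and Cbll1 at −0.04, and the demethylases Fto and Alkbh5 at −0.03 and 0.22. Fto was at −0.32 at T4 and 0.23 at T5, and Cbll1 at 0.26 and −0.30, neither difference past the threshold. The other RNA methyltransferases Mettl5, Zcchc4 and Pcif1 were at −0.39, −0.38 and −0.07, none past the threshold. As STM2457 inhibits catalysis, the level of Mettl3 mRNA is no check of the treatment.

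Of 12 m6A readers, 3 rose and none fell (25%, beside 6.37% of all genes). Ythdf1 was at 118, 144 and 189 CPM in DMSO and 159, 212 and 231 CPM in STM2457 (0.51 ± 0.09, adjusted p = 0.000362). The nuclear reader Ythdc1 rose by 0.65 ± 0.10 on the log2 scale, with 43.5% of reads mapping to several places, and Ythdf2 by 0.60 ± 0.15 (adjusted p = 0.00915). Over both times together, the highest DMSO library lay above the lowest STM2457 library in all 3 readers. Within each time Ythdf1 was separate, with 161 to 189 CPM in DMSO and 204 to 231 CPM in STM2457 at T4. At T5 it had 118 to 127 and 159 to 222 CPM. Ythdc1 and Ythdf2 were separate at T4 and overlapped at T5. The call of Ythdf2 was lost in 11 of 15 fits that left out a single library, namely each T4_DMSO replicate, T4_STM2457 replicates 1 and 3, T5_DMSO replicates 1 and 2 and T5_STM2457 replicates 1 to 3, with an adjusted p of up to 0.0295. The remaining readers did not pass: Ythdf3 was at 0.35, Igf2bp2 at 0.24, Hnrnpc at 0.02, Prrc2a at 0.01, Hnrnpa2b1 at −0.04, Igf2bp1 at −0.11, Igf2bp3 at −0.16, Fmr1 at −0.40 and Ythdc2 at −0.51.

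Some targets of the transcription factor p53 and some cyclins fell. Of 21 p53 targets, 5 fell and none rose (23.8%, beside 6.37% of all genes), with a list median of −0.31. Without T5_DMSO replicates 3 and 4 the number that fell was 7. Ccng1, a p53 target that encodes cyclin G1, had 174, 192 and 337 CPM in DMSO and 114, 127 and 177 CPM in STM2457. Over both times together only the highest STM2457 library reached the lowest control, and within each time the groups were separate. The log2 fold change was −0.76 ± 0.11 (adjusted p = 4.27e-05). Eda2r, a death receptor, fell by 0.68, the stress protein gene Sesn2 by 0.42 and Zmat3 by 0.38 on the log2 scale.

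Among 22 cyclins and CDK inhibitors, 4 fell and none rose (18.2%, beside 6.37% of all genes). Beside Ccng1 these were Ccnh, a partner of Cdk7 (−0.69 ± 0.12), the G1 cyclin Ccnd2 (−0.62 ± 0.09) and the S and G2 cyclin Ccna2 (−0.42 ± 0.09). Ccnd2 had 217 to 354 CPM in DMSO and 148 to 217 CPM in STM2457, and its groups met at a single value without overlap. Ccna2 lost its call without T4_STM2457 replicate 2 or T5_STM2457 replicate 3 or 4, with an adjusted p of up to 0.0114. In the fit without T5_DMSO replicates 3 and 4, 5 members fell.

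**Figure D4:**
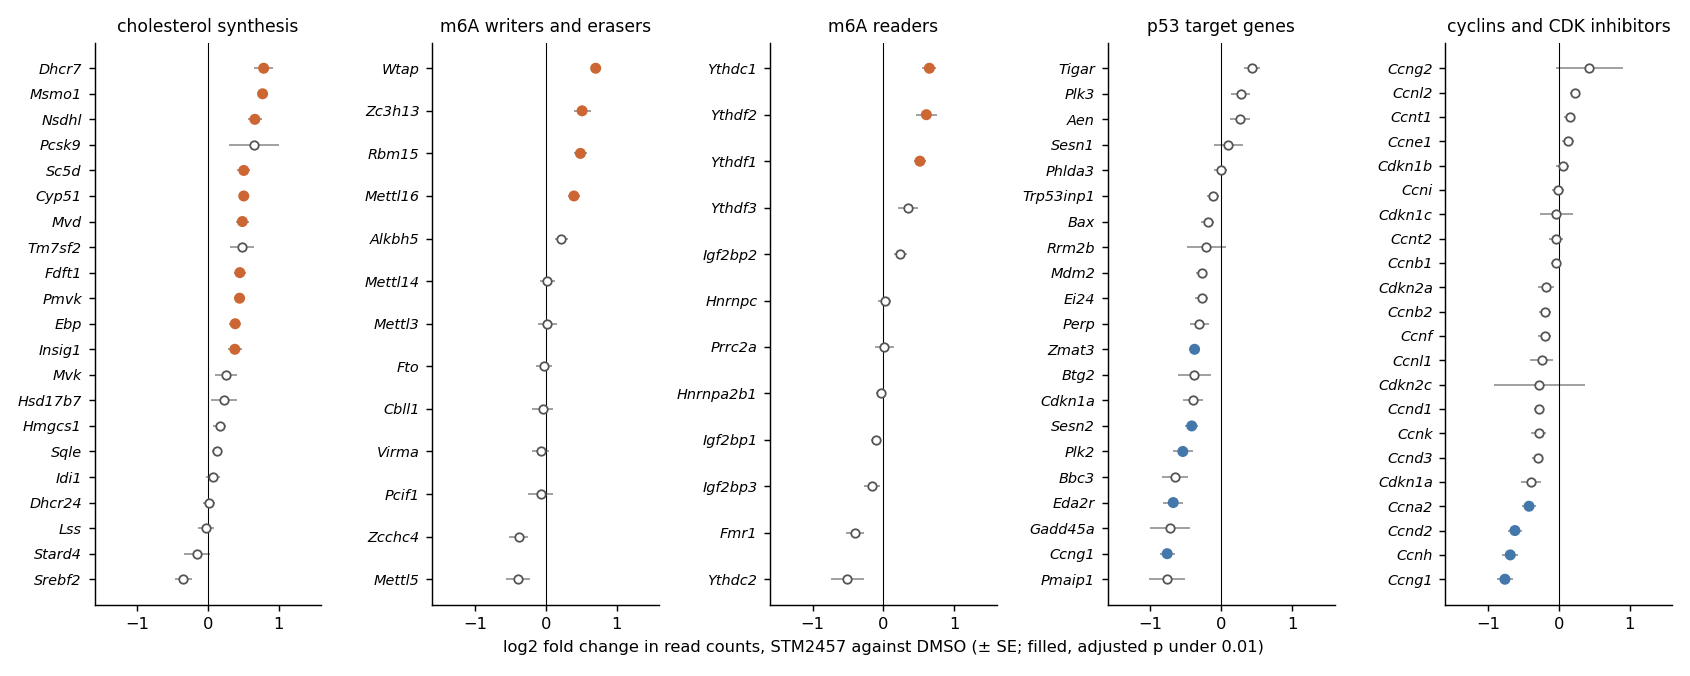
Log2 fold change of STM2457 against DMSO with its SE for tested members of 5 gene lists, filled where the adjusted p was under 0.01. Members of cholesterol synthesis lie mostly to the right of 0, p53 targets mostly to the left (4 of 21 above 0), and Mettl3 and Mettl14 lie at 0.02.

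Of 19 naive pluripotency genes, 2 rose and none fell, and the list median was 0.29. Nr0b1, an X-linked nuclear receptor, had 28.6, 59.7 and 86.2 CPM in DMSO and 86.4, 108 and 142 CPM in STM2457, a log2 fold change of 1.00 ± 0.13 (adjusted p = 1.23e-05) without overlap. Esrrb, another nuclear receptor of this network, rose by 0.70 ± 0.10 on the log2 scale. Its groups overlapped over both times together and were separate within each time. At T4 it had 76.1 to 102 CPM in DMSO and 115 to 136 CPM in STM2457, and at T5 44.4 to 70.5 and 88.5 to 108 CPM. Pou5f1 was at −0.14 ± 0.06 and Nanog at 0.21 ± 0.10, neither past the threshold. The count was 5 without T5_DMSO replicates 3 and 4. Of 12 genes of the formative and primed states, 2 fell and none rose (16.7%, beside 6.37% of all genes). They were Lef1 (−0.89 ± 0.21) and the de novo methyltransferase gene Dnmt3b (−0.66 ± 0.09). Dnmt3b was at 208 to 322 CPM in DMSO and 149 to 176 CPM in STM2457. Lef1 and T were also the only 2 of 12 Wnt target genes that passed (16.7%, beside the same 6.37%). The call of Lef1 was lost in 10 of 15 fits without a single library, which were those without T4_DMSO replicate 1, 2 or 4, T4_STM2457 replicate 1, T5_DMSO replicate 2 or 4, or any T5_STM2457 replicate (adjusted p up to 0.0159).

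Of 45 mRNA decay factors, 1 rose and 4 fell (11.1%, beside 6.37% of all genes). Tnrc6c, a scaffold of the microRNA pathway that recruits deadenylases, had 7.68, 13.1 and 15.3 CPM in DMSO and 0.355, 2.54 and 5.19 CPM in STM2457. All STM2457 libraries were below all controls, and the log2 fold change was −2.40 ± 0.35 (adjusted p = 6.29e-05), at a mean level under the 10 CPM asked of the ranked genes. The decapping enhancer gene Edc3 rose by 0.54 ± 0.11 on the log2 scale. Cnot10, a subunit of the deadenylase complex, was at −0.46 ± 0.10 and passed except without T5_STM2457 replicate 4 (adjusted p = 0.0101). Exosc10, a nuclease of the exosome, was at −0.38 ± 0.08 and lost its call without T4_STM2457 replicate 1 or 2 or T5_STM2457 replicate 4, with an adjusted p of up to 0.0135. The fourth, Tnrc6a, a paralogue of Tnrc6c, was at −0.63 ± 0.16 (adjusted p = 0.00964), and kept its call only without T5_DMSO 1, T5_DMSO 4 or T5_STM2457 1 (adjusted p up to 0.0282 in the other 12 fits).

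Lists for signalling and stress are read against the 6.37% of all genes that passed. The share that passed was 12.5% in apoptosis, 11.8% in immediate early genes, 11.1% in targets of ATF4 and CHOP, 18.2% in ERK feedback genes and 5.26% in heat shock and ER chaperones, each from 1 to 3 genes. In apoptosis, 3 of 24 genes rose, namely Ripk1, the adaptor gene Fadd (0.84 ± 0.18) and the survival gene Bcl2l1 (0.71 ± 0.14), which act in opposite directions on cell death. Of 17 immediate early genes Jund rose (0.67 ± 0.12) and Ier2 was at −0.47 ± 0.11. Of 18 targets of ATF4 and CHOP, Trib3 rose (0.97 ± 0.22) and Sesn2 fell. Of 11 ERK feedback genes, Spry1 (−0.96 ± 0.23) and Spry2 (−0.35 ± 0.08) passed, and of 19 heat shock and ER chaperones Dnajb1 did (0.28 ± 0.07). Calls of Ier2, Spry1, Spry2 and Dnajb1 were lost in 8, 9, 8 and 13 of the 15 fits without a single library, with an adjusted p of up to 0.0151, 0.0236, 0.0144 and 0.0235, and that of Trib3 in 2 (up to 0.012, without T5_STM2457 replicate 3 or 4). In Ier2 these fits were without T4_DMSO 2 or 3, T4_STM2457 1 or 2, T5_DMSO 3, or T5_STM2457 1, 2 or 3. In Spry1 they were without T4_DMSO 4, T4_STM2457 1 or 2, T5_DMSO 3 or 4, or any T5_STM2457 replicate, and in Spry2 without T4_DMSO 1 or 4, T4_STM2457 2 or 3, or any T5_STM2457 replicate. Dnajb1 kept its call only without T4_DMSO 2 or 4. Without T5_DMSO replicates 3 and 4 together the calls of Ier2 (adjusted p = 0.0281) and Spry1 (0.0800) were lost.

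Of 27 Polycomb genes, Cbx2 rose (0.54 ± 0.12) and Cbx7 was at −0.44 ± 0.10, both encoding subunits that read histone methylation. They are 7.41% of the list, near the 6.37% of all genes. Cbx2 lost its call without T4_STM2457 replicate 1 or T5_STM2457 replicate 4 (adjusted p up to 0.0117) and Cbx7 without T5_DMSO replicate 2 (0.0105). Of 18 retroelement silencing genes only Daxx passed (0.46 ± 0.10), which is 5.56% of them and also near that share. Of 5 testable mesoderm markers, T fell and Bmp4 was at 0.98 ± 0.23 (40% of the list, beside 6.37% of all genes). The call of Bmp4 was lost without T4_DMSO 3, T4_STM2457 1 or 3, or T5_STM2457 1, 2 or 4 (adjusted p up to 0.0199).

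Of 81 ribosomal protein genes, Rplp1 (0.24 ± 0.05) and Rps16 (0.33 ± 0.08) passed (2.47%, beside 6.37% of all genes), and the list median was −0.01. The call of Rps16, with 99.4% of reads mapping to several places, was lost in 7 of 15 fits, without T4_DMSO 1, T4_STM2457 2, T5_DMSO 3 or any T5_STM2457 replicate (adjusted p up to 0.018). None of 77 oxidative phosphorylation genes passed. Of 277 zinc finger genes named Zfp, 7 rose and 2 fell, a smaller share than the 6.37% of all genes. Of 38 proteasome subunits, 2 rose and 3 fell (13.2%), with Psmd7 as the clearest at 845 to 921 CPM in DMSO and 1241 to 1474 CPM in STM2457 (0.58 ± 0.06, adjusted p = 1.64e-07). Without T5_DMSO replicates 3 and 4, 2 proteasome genes rose and 6 fell. Of 36 replication-dependent histones only Hist1h2ac passed (2.78%), at 0 to 1.14 CPM in DMSO and 1.597 to 2.97 CPM in STM2457. Its call was lost in 12 of 15 fits without a single library (adjusted p up to 0.019). The fits that kept it were those without T4_DMSO 2, T5_DMSO 1 or T5_DMSO 2. The call was also lost without T5_DMSO 3 and 4 together (adjusted p = 0.0351).

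The 735 genes were chosen by the effect pooled over T4 and T5, which nearly fixes a shared sign, and all 735 had the same sign at both times. Their median absolute log2 fold change was 0.50 at T4 and 0.65 at T5, and it was larger at T5 in 514 of them. These sizes were not computed without T5_DMSO replicates 3 and 4. The T4 contrast called 132 genes and the T5 contrast 693, with 80 in both, while the median SE over all genes was 0.23 and 0.21. Fits on the libraries of each time alone gave the opposite order, with 308 genes called at T4 and 161 at T5. No gene passed the test of the difference between T5 and T4 with edgeR (0.0% of 11537, 1472 at an unadjusted p under 0.05), where DESeq2 called 13. The lowest adjusted p was 0.0122, for the linker histone gene Hist1h1e (T4 1.13, T5 −0.41). Without T5_DMSO replicates 3 and 4 together, 4 genes passed and 745 were at an unadjusted p under 0.05. Leaving out T5_DMSO replicate 1 raised the count to 135, and leaving out T4_STM2457 replicate 2, T5_DMSO replicate 3 or 4 or T5_STM2457 replicate 2 to 1 or 2 genes, so the count of 0 does not show that the effects were equal.

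More genes passed for time than for treatment. Between T4 and T5, 1130 genes (9.79%) changed with treatment held constant, 518 up and 612 down. The heat shock genes Hspa1b (1.67 ± 0.15) and Dnajb1 (0.67 ± 0.07), the chaperone gene Hspa8 (0.71 ± 0.07) and the BMP target Id1 (1.47 ± 0.19) were higher at T5. The cold-inducible Cirbp (−1.15 ± 0.10), the phosphatase regulator Ppp1r10 (−1.31 ± 0.11) and Tex19.1, which acts against retrotransposons (−1.27 ± 0.08), were lower. Tex19.1 was higher in STM2457 than in DMSO by a log2 fold change of 0.70 ± 0.08. The count was 681, 690 and 691 without T4_DMSO replicate 2, 3 and 4. It was 851 without T5_DMSO replicates 3 and 4. Whether T4 and T5 also differed in handling was not tested.

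Each other time point has its own controls, so the effect could be set against shorter and longer treatment. Of the 735 genes, 554 moved in the same direction at all 6 other times and 684 at 5 or more. The share over all tested genes is not given here, so how far this is particular to the 735 is not shown. In 1 fit over the 63 labelled libraries, 865 of 12597 genes passed for the mean of T4 and T5. They shared 646 with the 1571 genes that passed for T1 to T3, which is 74.7% of the T4 and T5 genes and 41.1% of the others. All 646 had the same direction. With T0 they shared 156 (18.03% of 865 and 76.8% of 203), and with T6 185 (21.4% of 865 and 57.6% of 321). The difference from T0 and from T1 to T3 passed in no gene with edgeR (0.0% each, with 644 and 651 at an unadjusted p under 0.05), and DESeq2 was not run on these contrasts.

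Against T6, 4 genes differed (0.0318%). Lefty1, an inhibitor of Nodal signalling, had a log2 fold change of −0.60 at T4 and T5 and of −0.02 at T6, a difference of −0.58 ± 0.11 (adjusted p = 0.00611). Trim59, a ubiquitin ligase gene, was at −0.20 and 0.88, and the zinc finger gene Zfp296 at 0.26 and 1.27. Mir295, a microRNA locus of pluripotent cells, was at 0.29 and 1.43 with 97.9% of reads mapping to several places. A fit with only the libraries of this contrast called 2 genes, and without T5_DMSO replicates 3 and 4 the count was 0, with 806 at an unadjusted p under 0.05.

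Over all genes, the conversion rate fell from T4 to T5 in both treatments. At T4 it was 1.01% ± 0.0345 (SD, n = 4) of covered T positions in DMSO and 0.927% ± 0.0180 (n = 3) in STM2457. At T5 it was 0.534% ± 0.0324 (n = 4) and 0.526% ± 0.0189 (n = 4). Unlabelled libraries gave 0.0814% ± 0.00438 and 0.0829% ± 0.00812 (n = 4 each). With this background subtracted, 48.8% of the T4 rate remained at T5 in DMSO and 52.5% in STM2457. Rates were lower in STM2457 by 0.0446 percentage points over both times (two-sided exact permutation test within time points, p = 0.0335), with the groups separate at T4 (p = 0.0571, the smallest that 3 against 4 libraries allow) and overlapping at T5 (p = 0.743). Taken as the median over genes, the rate differed by −0.0150 (exact permutation p = 0.398), and at T5 it was higher in STM2457 by 0.0247 (exact permutation p = 0.0571). For the rate over all T positions, the call was lost without any one of T4_DMSO 2, 3 and 4, T4_STM2457 2 and 3, T5_DMSO 3 and 4, and T5_STM2457 1 and 4 (p from 0.0506 to 0.0705), and without T5_DMSO 3 and 4 together the exact permutation p was 0.141.

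Gene by gene, the conversion rate differed between treatments in 28 of 6522 genes with at least 2000 covered T positions on average (0.429%). It was higher in STM2457 in 18 and lower in 10, by edgeR on the conversion counts. The split turned to 7 higher and 12 lower without T5_DMSO replicate 2, and was 35 higher and 6 lower with the rate of the whole library in the offset. Ywhah, a 14-3-3 protein gene, had 0.684, 0.685, 0.800 and 0.874% at T4 in DMSO and 0.928, 1.07 and 1.07% in STM2457. At T5 it had 0.151 to 0.227% in DMSO and 0.412 to 0.514% in STM2457, so the treatments did not overlap at either time (log2 ratio 0.83 ± 0.13, adjusted p = 2.71e-05). Tmem11, a mitochondrial membrane protein gene, had a log2 ratio of 1.04 ± 0.18 and rose in read count too (0.57 ± 0.08).

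The metallothionein genes Mt1 and Mt2, which buffer zinc and copper, had lower rates in STM2457. Mt1 was at 1.12, 1.17, 1.18 and 1.22% at T4 in DMSO and at 0.898, 0.908 and 0.918% in STM2457, and at 0.635 to 0.747% and 0.509 to 0.550% at T5. All STM2457 values lay below the controls of the same time (log2 ratio −0.37 ± 0.05, adjusted p = 1.63e-06). Mt2 (−0.35 ± 0.05), the translation factor gene Eif4g2 (−0.39 ± 0.06) and the splicing factor gene Srsf3 (−0.51 ± 0.09) were lower as well. The read count of Mt1 had a log2 fold change of 0.05 ± 0.08, with −0.27 at T4 and 0.31 at T5 (adjusted p of the difference = 0.0310, which did not pass). Without T5_DMSO replicates 3 and 4 the test called 4 genes, which were Mt1, Mt2, Eif4g2 and Ywhah, and without replicate 3 or 4 alone it called 15 and 13. With limma on background-subtracted rates no gene passed, against 1021 at an unadjusted p under 0.05.

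Most genes that rose in read count also had a higher conversion rate. Of 378 such genes with enough covered T positions, 315 (83.3%) had a higher conversion rate in STM2457, and the median log2 ratio was 0.44. Of 267 genes that fell, 71 (26.6%) had a higher rate, with a median of −0.17. Over all 6522 genes it was 3010 (46.2%), with a median of −0.03. Both measures come from the same reads of the same libraries, and no test was made of this relation. Nxt1 belongs to both sets, with rates of 0.459% at T4 and 0.0838% at T5 in DMSO and 0.805% and 0.467% in STM2457.

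Nearly all genes lost label between T4 and T5. The rate was lower at T5 in 6513 of 6522 genes, the fall passed the test in 5471 (83.9%), and no rise passed it. A median of 27.5% of the background-subtracted T4 rate remained at T5 in DMSO (quartiles 13.5 and 45.2%) and 32.9% in STM2457 (17.8 and 50.5%). Relative to the fall of the whole library, 261 genes (4.0%) fell more slowly and 1556 (23.9%) faster. The library rate pools all covered T positions and kept 48.8% in DMSO, above the median gene at 27.5%. The split between slower and faster genes therefore depends on this reference. The slow genes were led by Wdr89, where 105% remained in DMSO and 88.6% in STM2457. At T5 the rate of Wdr89 was 0.848 and 0.958% in T5_DMSO replicates 1 and 2 and 1.36 and 1.54% in replicates 3 and 4, and its rate in unlabelled DMSO libraries was 0.388%. The slow genes also held the translation genes Rps21, Rplp1, Eif3f, Rpl8 and Rpl34, with 76.2 to 81.8% in DMSO. Among the fastest were Mat2a, which makes the methyl donor of m6A and whose DMSO rate at T5 was below the unlabelled rate, Ppp1r8 with 4.43% remaining, Fzd10, Gnl3 with 7.22%, Ppp2r2a with 8.81% and Fxr2 with 11.7%.

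Families differed widely in how much label they kept. Of 79 ribosomal protein genes 73 fell more slowly than the library. Over all 79, a median of 72.4% remained in DMSO and 79.0% in STM2457, though 53 of the 79 had most reads mapping to several places. Of 74 oxidative phosphorylation genes 38 fell more slowly and none faster (medians over the 74 of 63.1 and 68.7%). Among 35 proteasome genes 6 fell more slowly and 2 faster. Falls faster than the library were seen in 23.9% of all genes. They were found in 6 of 13 naive pluripotency genes and in 8 of 19 cyclins and CDK inhibitors. Over all 13 naive pluripotency genes, the median kept was 8.56% in DMSO and 23.2% in STM2457. Faster falls were found in 11 of 37 decay factors, near the share of all genes. They were below that share for Zfp genes (19 of 100) and for immediate early genes (1 of 8). Medians kept in DMSO and STM2457 were 13.3 and 16.95% over the 100 Zfp genes. Over the 8 immediate early genes they were 4.99 and 27.9%. Both lists nevertheless kept less label in DMSO than the median of all genes (27.5%), so few calls do not mean a slow fall.

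**Figure D5:**
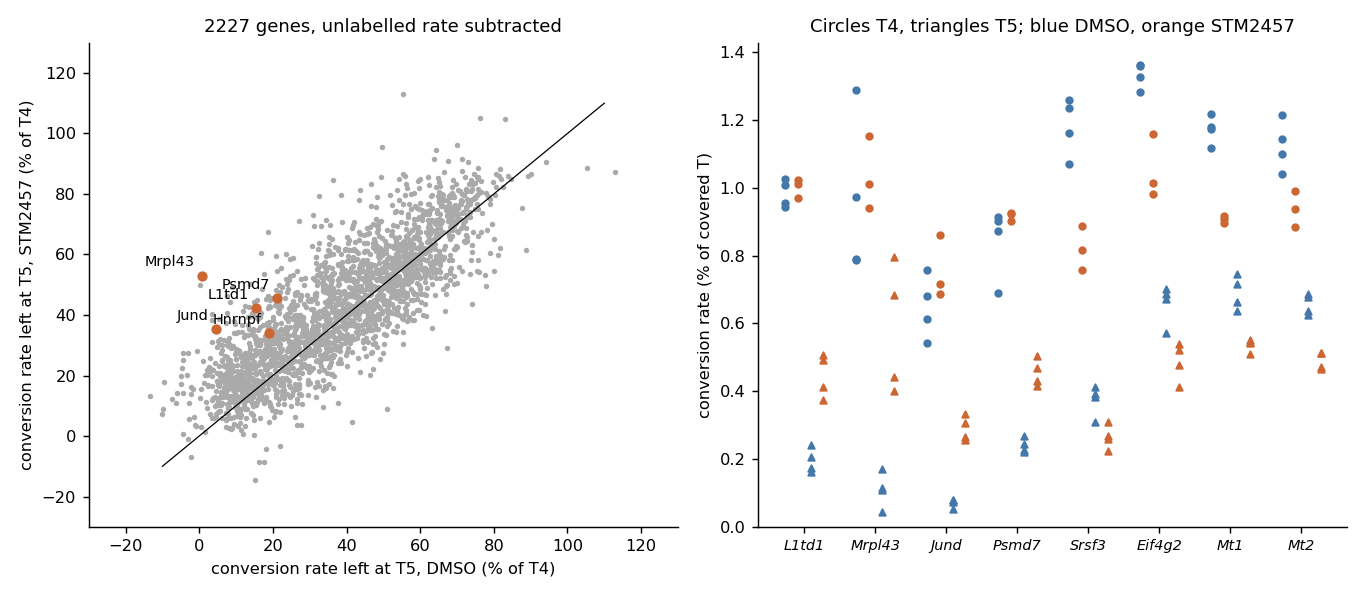
Left, background-subtracted conversion rate at T5 in percent of that at T4 for 2227 genes with at least 10000 covered T positions, DMSO on the horizontal and STM2457 on the vertical axis, with the 5 genes whose fall differed in colour and 3 genes outside the range; 1456 genes lie above the diagonal. Right, conversion rate in each library for 8 genes, circles T4 and triangles T5, blue DMSO and orange STM2457, where the T5 values of L1td1 split by treatment and those of T4 do not.

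The fall itself differed between treatments in 5 genes (0.0767%), all with a smaller fall in STM2457. L1td1, an RNA-binding protein of pluripotent cells, had 0.943 to 1.03% at T4 in DMSO and 0.970 to 1.02% in STM2457. At T5 the DMSO libraries had 0.162, 0.174, 0.206 and 0.242% and the STM2457 libraries 0.375, 0.412, 0.491 and 0.508%. The treatments overlapped fully at T4 and were separate at T5, with 15.3% of label remaining in DMSO and 42.4% in STM2457 (difference in log2 fall 1.17 ± 0.16, adjusted p = 2.1e-06). The read count of L1td1 had a log2 fold change of −0.15 ± 0.10, which did not pass.

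The other four were Mrpl43, a mitochondrial ribosomal protein gene (2.29 ± 0.44), Jund (1.78 ± 0.35), Psmd7 (0.81 ± 0.17) and the RNA-binding protein gene Hnrnpf (0.64), in which 97.9% of reads mapped to several places. Mrpl43 kept 0.729% of its T4 rate in DMSO and 53.05% in STM2457, and Jund kept 4.46 and 35.4%. The T5_DMSO rate of Mrpl43 was 0.111%, close to the 0.104% of unlabelled DMSO libraries, so its kept share in DMSO lies at the background. Kept shares are background-subtracted, while the test used conversion counts without subtraction. Mrpl43, Jund, Psmd7 and Hnrnpf also rose in read count, by 0.61, 0.67, 0.58 and 0.30 on the log2 scale. Without T5_DMSO replicates 3 and 4 the test called 4 genes. Without T4_DMSO 2 or 4, T4_STM2457 1, T5_DMSO 2 or T5_STM2457 3 it called 2, and without T4_STM2457 2 or 3 it called 1. At an unadjusted p under 0.05 there were 503 genes, 413 of them with the smaller fall in STM2457.

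The study asked how m6A relates to the balance between the X chromosome and the autosomes, and the level of 397 X-chromosomal genes was therefore set against that of 11119 autosomal genes. The median log2 CPM of X genes minus that of autosomal genes was −0.51, −0.47, −0.48 and −0.33 in T4_DMSO and −0.45, −0.55 and −0.36 in T4_STM2457. At T5 it was −0.38, −0.27, −0.22 and −0.22 in DMSO and −0.54, −0.39, −0.57 and −0.43 in STM2457. The groups overlapped at T4 and were separate at T5. Over both times the value was lower in STM2457 by 0.11 (two-sided exact permutation test within time points, p = 0.049), with a difference of −0.01 at T4 (p = 0.857) and −0.21 at T5 (p = 0.0286, the smallest that 4 against 4 libraries allow). The call was lost in 11 of 15 tests without a single library, namely T4_DMSO 2, 3 or 4, T4_STM2457 1 or 2, T5_DMSO 2, 3 or 4, or T5_STM2457 1, 3 or 4 (exact permutation p from 0.0557 to 0.143). Without T5_DMSO replicates 3 and 4 together, which have the highest values of all, the difference was −0.08 (exact permutation p = 0.149). Among genes of at least 10 CPM it was −0.08 (exact permutation p = 0.0106), with −0.10 at T4 and −0.06 at T5, so that T4 had the larger value. With the mean in place of the median it was −0.09 (exact permutation p = 0.00735), and with multimapping reads subtracted −0.14 (exact permutation p = 0.0163).

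Gene by gene, the X chromosome had the lowest median log2 fold change of the 20 chromosomes, at −0.10 with all libraries and −0.07 without T5_DMSO replicates 3 and 4. Of its 397 genes, 10 rose (2.52%) and 9 fell (2.27%), beside 3.83% and 2.61% of autosomal genes. Beside Nr0b1 and the cholesterol gene Nsdhl, those that rose included Eras, a Ras-like gene of embryonic stem cells (0.90), Tbc1d25 (1.02) and Rab9 (0.76), and those that fell included the mRNA export gene Thoc2 (−0.86), Phf6 (−0.82) and Eda2r (−0.68). Apart from list members these X-linked examples were picked after their values had been seen.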

How the data were processed

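QuantSeq 3′-end libraries were mapped by the authors to GRCm38.p6 with SLAM-DUNK (default filters, FastQC 0.11.8), multimapping reads retained, variants of merged unlabelled libraries masked, and 3′ UTR windows from GENCODE M23 collapsed by gene. The authors deposited raw counts of reads, multimapping reads, covered T positions and conversions, with the conversion rate as a fraction and reads also as CPM. Chase hours came from the study's methods. Here, 11537 of 21527 genes passed filterByExpr and were fitted with edgeR 4.0.16 (R 4.3.3, TMM, quasi-likelihood, time point as covariate, Benjamini-Hochberg adjusted p under 0.01). Conversion counts were fitted likewise with the log of covered T positions as offset. Single values per library used exact permutation tests in scipy 1.17.1. DESeq2 1.42.0 and limma 3.58.1 were alternatives. The code was tested on simulated data.

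Ranked genes are the 12 largest increases and 12 largest decreases past the threshold with at least 10 CPM on average and under 50% multimapping reads, without names of the form Gm plus digits or ending in Rik. From each list up to 4 members of smallest p were named, with all m6A writers, erasers and readers. From the conversion comparisons and the contrasts between times, up to 4 genes of smallest p per direction were named under the same limits, and 6 of the fastest and slowest falls with at least 20000 covered T positions. Members and lists were chosen with earlier results of these data known. Comparisons without T5_DMSO replicates 3 and 4 together were chosen after seeing the data. Gene positions came from GENCODE M21, with 27 genes not placed. Values of 2 members of the cholesterol list are not reported here.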

Additional observations from a re-analysis of the deposited data

Results flagged for a closer look

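In 84 groups of 4 libraries examined for single values far from the rest, 3 were found, where chance gives about 1 in 20. T5_DMSO replicate 3 had 4562128 reads counted, against 5159149 to 5217419 in the other T5_DMSO libraries. Usp48 was at 9.45 CPM in T5_STM2457 replicate 2 and at 15.6 to 16.4 CPM in the other 3. Tacc1 was at 23.7 CPM in T5_DMSO replicate 1 and at 13.8 to 14.8 CPM in the other 3. Both genes kept their calls without these libraries.

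A test of the difference between groups passed in 9 cases. The log2 change in conversion rate from T4 to T5 was higher in STM2457 than in DMSO by 1.17 for L1td1, 0.64 for Hnrnpf, 2.29 for Mrpl43, 1.78 for Jund and 0.81 for Psmd7. The log2 effect of STM2457 on read counts at T4 and T5 was lower than that at T6 by 0.58 for Lefty1 (difference −0.58). For Mir295 the difference was −1.14, for Trim59 −1.09 and for Zfp296 −1.004.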

How the results depend on the processing

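The deviations of same-numbered libraries correlated at −0.09 to 0.05. This gave no sign that replicate numbers pair the libraries, but so few libraries cannot show that they were unpaired. With the replicate block, 300 genes passed for read counts (212 up, 88 down), 2 for the difference in the fall of the conversion rate, the overall rate differed by −0.0385 percentage points (exact permutation p = 0.141) and the X to autosome level by −0.11 (exact permutation p = 0.125). Of 83 genes that passed for read counts and were followed through the alternatives, which are the ranked genes, list members and others named for their read count, 50 did so with the block, 64 in every fit without a single library and 79 without T5_DMSO replicates 3 and 4. None of these 83 genes reversed its direction under any alternative. Among the 147 genes followed, a change of sign was counted as a reversal only for genes that passed in the main fit. For read counts, DESeq2 called 1116 genes, T4 libraries alone 308, T5 libraries alone 161, and fits without a single library 486 to 835. For the effect at T5 minus T4, the counts were 13 with DESeq2, 24 with no filter, 1 with multimapping reads subtracted, 4 without T5_DMSO replicates 3 and 4, and 0 to 135 without a single library. For T5 against T4 they were 681 to 1486 without a single library and 1619 with DESeq2. Conversion rates differed in 44 genes with at least 10000 covered T positions, 0 with limma (1021 at an unadjusted p under 0.05), 4 without T5_DMSO replicates 3 and 4 and 13 to 34 without a single library. With the rate of the whole library in the offset the split was 35 up and 6 down, against 18 and 10. The fall of the rate differed in 9 genes with at least 500 and 8 with at least 10000 covered T positions, and in 1 to 7 without a single library. The fall relative to the library passed in 1115 genes with at least 10000 covered T positions and in 1620 to 1826 without a single library. Against T6, 2 genes passed with only the libraries of the contrast and 0 without T5_DMSO replicates 3 and 4. The overall rate differed by −0.0150 as a median over genes (exact permutation p = 0.398), by −0.0323 without T5_DMSO replicates 3 and 4 (p = 0.141 by the same permutation test) and by −0.0524 to −0.0383 without a single library. The X to autosome level differed by −0.0829 without T5_DMSO replicates 3 and 4 and by −0.131 to −0.0848 without a single library. Fewer genes or libraries enter several of these fits, and beyond that the cause was not tested.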
